A study of Mus musculus with 69 samples.

Results

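The data described here are the kidneys of nephritic mice taken at ZT4, early in the rest phase, and at ZT16, early in the active phase. They make up 7 of the 69 RNA-seq libraries of the series, 4 at ZT4 and 3 at ZT16, and were chosen by the diagnosis and time given in their labels. All were whole perfused kidneys of female NZB/W F1 mice, a cross that develops a lupus-like immune complex glomerulonephritis with age, and poly-A RNA was sequenced and counted per gene. Nephritic mice were 30 to 45 weeks old, carried no treatment, and were harvested 2 to 3 weeks after proteinuria passed 300 mg/dl. Lights were on from ZT0 and off from ZT12 (12 h of light, 12 h of dark). Young mice of the same cross, 12 weeks old, gave 4 libraries at each of the same times and are used for comparison. Age and nephritis changed together between these groups, so their parts cannot be told apart. The 7 libraries held 31360192 to 35583849 counted reads (median 32100273), and the 8 young ones 25617028 to 33912836. Levels are given as CPM, read counts scaled to a common library size with TMM factors, and changes as log2 of ZT4 over ZT16, so that a negative value is a lower level at ZT4.

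The mammalian clock is a transcriptional loop that runs in nearly every cell, the tubular epithelium included. ARNTL (BMAL1) pairs with CLOCK or NPAS2 to switch on the Per and Cry genes and Nr1d1 and Nr1d2 through E-boxes, PER and CRY proteins shut that pair down again, and the NR1D (REV-ERB) repressors compete with ROR activators at another element, the RORE, which drives Arntl itself. DBP, TEF and HLF, opposed by NFIL3, carry the rhythm to output genes through D-boxes. In the kidney the clock is known to time sodium, water and solute transport and blood pressure. Mice are nocturnal, so ZT4 falls in their sleep and ZT16 in their feeding and activity.

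All 15 libraries belonged to the second of the study's sequencing sets. Markers of the labelled tissue were present in all 7, with the proximal tubule phosphate transporter gene Slc34a1 at 2169 to 3565 CPM and the podocyte gene Podxl at 198 to 334 CPM. ZT4 replicates 2 and 3 were the most alike pair of libraries of one group anywhere in the series, with a chi-square per gene of 3.58, where sampling noise alone gives 1, against 17.4 to 26.6 for the other ZT4 pairs and 38.9 to 111 for the ZT16 pairs. Their titles differ, they differed by more than sampling noise and were counted as 2 libraries, and whether they share an animal was not tested. Results are therefore also given with the pair summed to 1 library. ZT16 replicate 2 carried more RNA of injured tubule than the other ZT16 libraries: Lcn2, a secreted marker of tubular damage, stood at 7.97, 261 and 27.5 CPM in ZT16 replicates 1 to 3 and at 92.7, 60.1, 72.5 and 146 CPM in ZT4 replicates 1 to 4. Havcr1 (KIM-1) ran the same way, at 21.3, 309 and 42.6 CPM against 149 to 242 CPM at ZT4. Lcn2 was above the highest young library (17.3 CPM) in 6 of the 7 and Havcr1 (124 CPM) in 5 of the 7, and 0 of the 12 tubular injury genes passed the test between the times. Over all 27 nephritic libraries Lcn2 ran from 4.78 to 710 CPM (median 71.8) and Havcr1 from 21.3 to 1112 CPM (median 156). ZT16 replicates 1 and 3 lay below both medians, with Havcr1 under the highest young library, and ZT16 replicate 2 lay above both medians. The part of injury in the changes between the times was not tested beyond the covariate fit given below. The stems of the library titles also differ between ZT4 and ZT16, and since the labels do not say what a stem marks, any effect of it cannot be told apart from time.

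Promoters of clock genes and of the water channel gene Aqp2 are shown first, because these genes recur through the results and hold elements through which the clock is known to act. They are the 250 bases before an annotated start in RefSeq on GRCm38.p6, 5′ to 3′ on the strand of the gene, with the matched motif in capitals. Where several starts are annotated, the one lowest in coordinate was taken. Per3 (chr4:151044666-151044915, minus strand) holds the D-box TTATGTAA at positions -205 and -158 from the start. Cry1 (chr10:85185055-85185304, minus) holds an E-box, CACGTG, at -60 and an E-box-like CACGTT, read here as AACGTG on the other strand, at -79. Nr1d1 (chr11:98775378-98775627, minus) holds the E-box-like element at -28. Nfil3 (chr13:52981040-52981289, minus) holds the RORE core TAGGTCA, read as TGACCTA, at -12. Aqp2 (chr15:99578806-99579055, plus) holds an E-box at -58. For Arntl only the 30 bases around its RORE core are shown (chr7:113207526-113207555, plus), 31 bases after a start picked because its window holds the motif. The starts used for Arntl, Nfil3 and Per3 lie inside the annotated spans of these genes (chr7:113178471-113314126, chr13:52967209-52982878 and chr4:150997018-151044707).
Per3: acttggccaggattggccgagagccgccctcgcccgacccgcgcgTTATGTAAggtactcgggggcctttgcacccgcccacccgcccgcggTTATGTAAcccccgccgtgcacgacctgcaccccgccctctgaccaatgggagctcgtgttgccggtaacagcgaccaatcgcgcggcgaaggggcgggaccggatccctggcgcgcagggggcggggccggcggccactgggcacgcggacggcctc
Cry1: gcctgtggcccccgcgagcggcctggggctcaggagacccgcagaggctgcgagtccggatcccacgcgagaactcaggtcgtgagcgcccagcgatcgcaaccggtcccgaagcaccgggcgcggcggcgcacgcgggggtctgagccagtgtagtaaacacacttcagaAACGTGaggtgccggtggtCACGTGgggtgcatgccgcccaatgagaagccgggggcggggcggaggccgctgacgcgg
Nr1d1: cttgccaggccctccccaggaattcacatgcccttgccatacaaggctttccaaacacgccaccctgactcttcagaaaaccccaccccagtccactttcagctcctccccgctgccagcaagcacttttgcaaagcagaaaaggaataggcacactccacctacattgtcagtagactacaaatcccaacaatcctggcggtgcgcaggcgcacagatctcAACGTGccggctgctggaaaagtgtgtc
Nfil3: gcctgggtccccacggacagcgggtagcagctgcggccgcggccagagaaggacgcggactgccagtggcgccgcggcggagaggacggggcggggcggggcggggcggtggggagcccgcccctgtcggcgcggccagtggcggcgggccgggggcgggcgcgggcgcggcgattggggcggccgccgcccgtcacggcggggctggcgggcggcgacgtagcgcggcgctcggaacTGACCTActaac
Aqp2: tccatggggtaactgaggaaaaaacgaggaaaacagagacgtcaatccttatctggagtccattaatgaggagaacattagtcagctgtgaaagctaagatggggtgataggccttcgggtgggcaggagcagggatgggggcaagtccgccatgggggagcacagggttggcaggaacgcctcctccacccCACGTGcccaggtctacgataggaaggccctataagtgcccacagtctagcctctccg
Arntl: agggaaggcagaaagTAGGTCAgggacgga
Both strands were searched over 300 bases, 250 before to 50 after the start. Of the 32851 promoters in the RefSeq table, 7.15% held CACGTG, 4.68% CACGTT, 1.06% a D-box (TTATGTAA or TTACGTAA) and 2.61% TAGGTCA. A match describes the letters and is not evidence of binding.

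Across all genes, 508 of 16872 tested differed between ZT4 and ZT16 (3.01%, edgeR quasi-likelihood test, adjusted p at most 0.05). At ZT4, 152 were higher (0.901%) and 356 lower (2.11%), by at least 2-fold for 28 and 96 of them. Nr1d2, Dbp and Per3 led the clock genes that were higher, and Cry1 and Nfil3 those that were lower. Outside the clock, higher genes included Slc5a1, Slc7a12 and Gjb2, and lower genes included adipocyte markers, the vasopressin-linked Aqp2 and Avpr1a and 26 ribosomal protein genes. The CPM ranges of the groups did not overlap for 503 of the 508, against 29.8% of all genes tested. That count describes genes selected on the same libraries and is not a separate test. How many genes were called depended on single libraries. Leaving out 1 library at a time gave 18 to 345 calls, the lowest without ZT16 replicate 1 (18), ZT16 replicate 3 (26) or ZT4 replicate 4 (31), and summing ZT4 replicates 2 and 3 gave 114. Of the 508 genes, 507 kept their sign in all 7 of those fits, 10 were called in all 7, and 179 were called in none. Kept signs are likewise not a separate test, since the genes were selected on these libraries.

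**Figure D1:**
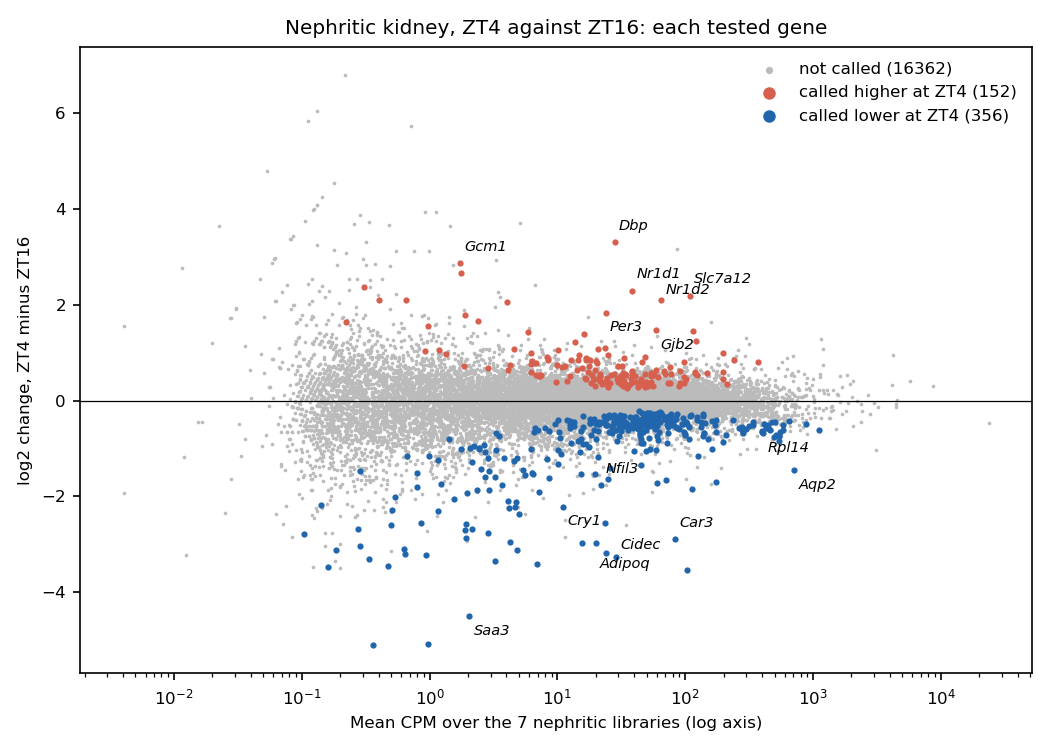
Change between ZT4 and ZT16 in nephritic kidney (log2 of ZT4 over ZT16, vertical axis) against mean level over the 7 libraries (CPM, log axis), 1 point per tested gene, with called genes coloured by direction. The 356 genes lower at ZT4 reach larger changes than the 152 that were higher. The 2 tested genes at 0 in all 7 libraries are not drawn.

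The 10 genes called without any single library, picked out after their values were seen, included 3 clock genes, Nr1d2, Cry1 and Nfil3. All 10 were also called with ZT4 replicates 2 and 3 summed. Of the others, Tmem144 and Tmppe were higher at ZT4 and Cdk11b, Dio3os, Irf2bp2, Sfswap and Vac14 lower. Tmem144, a membrane protein gene, stood at 17.04, 17.7, 17.2 and 20.5 CPM in the ZT4 libraries and at 7.56, 8.65 and 6.86 CPM at ZT16 (log2 1.23, SE 0.17, adjusted p = 0.00212). Irf2bp2, a transcriptional co-repressor, stood at 124, 118, 116 and 101 CPM against 223, 177 and 194 CPM (log2 -0.79, SE 0.11, adjusted p = 0.00212). Sfswap, a splicing regulator, stood at 47.0, 45.1, 43.5 and 43.1 CPM against 62.4, 60.1 and 59.5 CPM. Its change was small, -0.45 on the log2 scale (SE 0.07), and so were those of Cdk11b (-0.41), a kinase linked to splicing, and Vac14 (-0.36), a scaffold of the phosphoinositide kinase PIKfyve. The replicates of these genes lay close together within each time, which their selection on these same libraries favours.

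Of the 15 core clock genes, 3 were higher and 2 lower at ZT4, or 33.3% against 3.01% of all genes, and 8 had an unadjusted p under 0.05. The list median was -0.24, beside -0.001 over all genes. Nr1d2 (chr14:18204056-18239106), which encodes the repressor REV-ERB beta, was at 103, 95.4, 92.1 and 97.6 CPM at ZT4 and at 25.5, 24.2 and 17.8 CPM at ZT16. The ranges lie far apart, at 97.1 ± 4.70 (SD, n = 4) and 22.5 ± 4.14 (SD, n = 3), and the log2 change was 2.10 (SE 0.30, adjusted p = 0.00212). Its partner Nr1d1 (REV-ERB alpha, chr11:98767932-98775377) was at 71.5, 58.9, 59.4 and 44.8 CPM against 23.3, 7.06 and 5.07 CPM (log2 2.30, SE 0.56, adjusted p = 0.029). ZT16 replicate 1 was the highest of the ZT16 libraries for Nr1d1, and among the 7 fits that leave out a library the call was kept only without that one (log2 3.27, adjusted p = 0.0373, and 0.0546 to 0.139 without any other). Per3, a period gene with a D-box pair in the promoter above (chr4:150997018-151044707), was at 40.4, 33.6, 32.4 and 32.2 CPM against 9.02, 9.02 and 11.01 CPM, a log2 change of 1.83 (SE 0.36, adjusted p = 0.0141). The Per3 groups did not overlap, and the call was lost without ZT16 replicate 1 (adjusted p = 0.0822) or replicate 3.

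On the opposite phase, Cry1 (chr10:85131700-85185054), whose protein is the strongest repressor of the loop, was at 3.85, 4.16, 4.08 and 5.21 CPM at ZT4 and at 15.5, 20.8 and 23.9 CPM at ZT16. All ZT16 libraries were higher than all ZT4 libraries, and the log2 change was -2.22 (SE 0.32, adjusted p = 0.00212). Arntl and Npas2, the activator and its alternative partner, also had lower values in every ZT4 library but did not pass the test. Arntl was at 9.99, 9.52, 9.91 and 11.8 CPM against 31.5, 23.6 and 34.8 CPM (log2 -1.54, adjusted p = 0.065). Npas2 was at 6.02, 6.49, 7.16 and 9.32 CPM against 36.6, 21.1 and 25.1 CPM (log2 -1.94, adjusted p = 0.056). DESeq2, the joint fit with the young mice and the fit of the ZT4 and ZT16 libraries alone each called 7 core clock genes, beside 5 in the main test. The number was 2 to 4 when 1 nephritic library was left out and 3 with ZT4 replicates 2 and 3 summed. It was 0 with the adipocyte covariate described below.

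The other period genes overlapped or came close between the times. Per1 was at 56.6, 26.1, 27.4 and 36.6 CPM at ZT4 and 127, 56.4 and 43.4 CPM at ZT16 (log2 -1.05, adjusted p = 0.185). Per2 was at 26.5, 19.5, 20.5 and 20.5 CPM against 17.6, 24.4 and 39.7 CPM, so that the lowest of the 7 values was a ZT16 library (log2 -0.33, adjusted p = 0.666). Clock, Cry2, Bhlhe40, Bhlhe41, Rora and Ciart had log2 values between -0.34 and 0.88 and adjusted p between 0.388 and 0.878.

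Among the 9 clock output genes, Dbp was higher and Nfil3 lower at ZT4 (22.2% against 3.01%). Dbp (chr7:45705100-45710203), the activator at D-boxes, was at 55.8, 48.9, 48.8 and 29.9 CPM against 4.36, 5.39 and 4.09 CPM, the largest change among the 24 clock and clock output genes (log2 3.31, SE 0.58, adjusted p = 0.00971). Even the lowest ZT4 library, replicate 4, was well above the highest ZT16 value, though the call was lost without ZT16 replicate 1 (adjusted p = 0.0608) or replicate 3. Nfil3 (chr13:52967209-52982878), the repressor at the same element, was at 10.2, 9.34, 10.4 and 13.9 CPM against 41.6, 34.5 and 35.1 CPM (log2 -1.76, SE 0.28, adjusted p = 0.00537). Dbp and its antagonist were thus on opposite sides of the comparison. Tef, Hlf, Usp2, Wee1, Nampt, Por and Alas1 did not pass, with log2 values from -0.36 to 0.76.

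**Figure D2:**
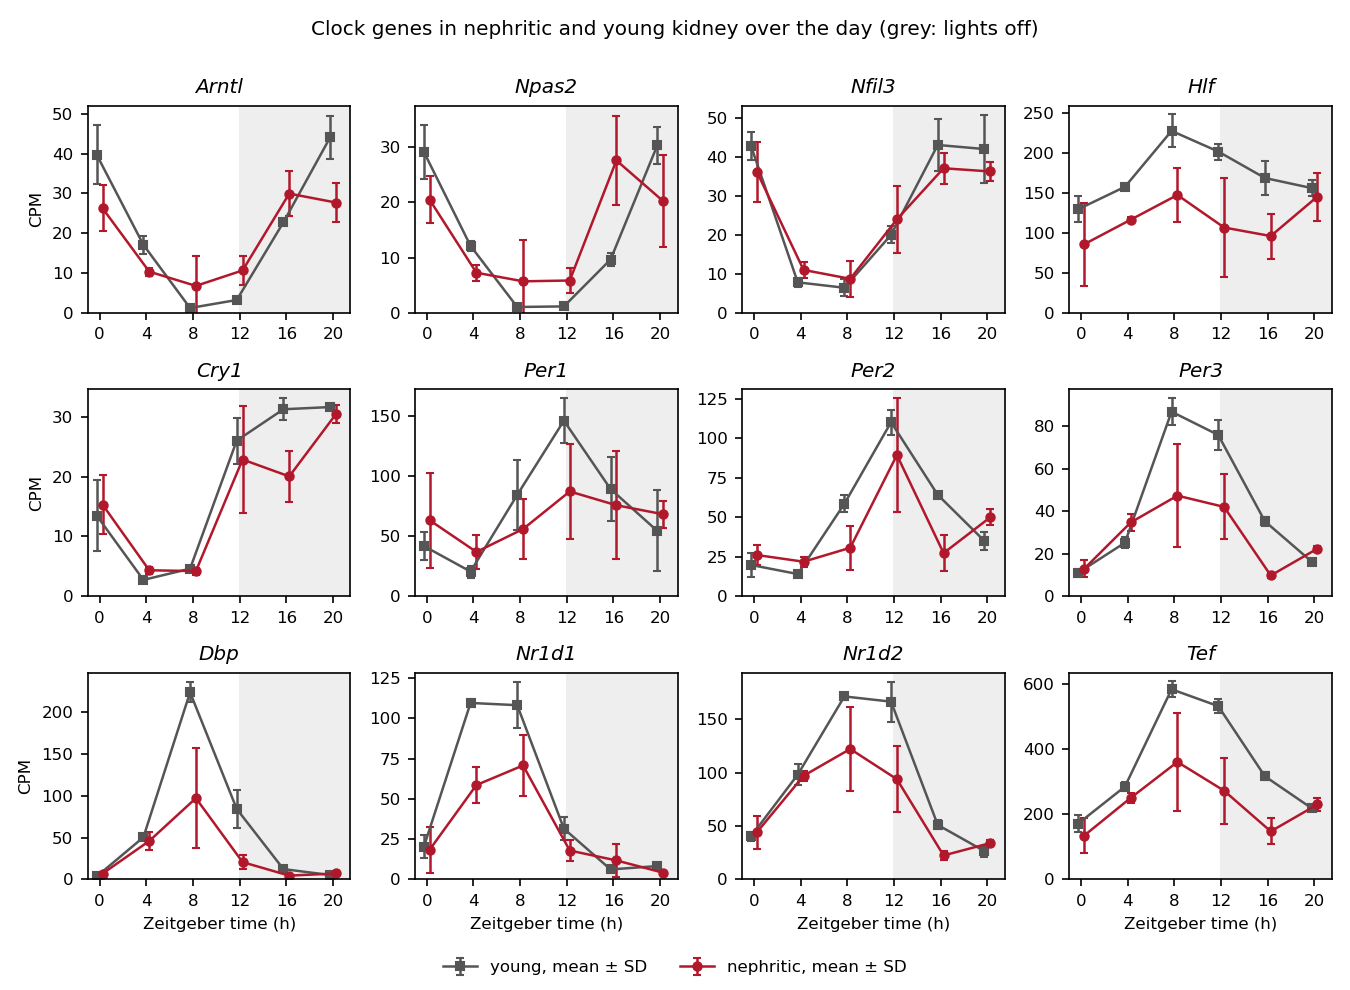
Mean level (CPM, vertical axis, error bars SD) of 12 clock genes at 6 Zeitgeber times (h, horizontal axis) in nephritic (red) and young (grey) kidney, with 3 to 7 libraries a point and the dark hours shaded. At ZT16 nephritic Per3 and Nr1d2 lie at their lowest, while nephritic Cry1 is higher than at ZT4.

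The rest of the day places these values. Nephritic Per3 averaged 12.8 ± 3.96 CPM at ZT0 (SD, n = 7), 47.3 ± 24.4 CPM at ZT8 (n = 4) and 9.68 ± 1.15 CPM at ZT16 (n = 3). In young kidneys Per3 averaged 86.8 ± 6.35 CPM at ZT8 and was still 35.2 ± 2.12 CPM at ZT16 (SD, n = 4 each). Of the 152 genes called higher at ZT4, 128 had their highest nephritic mean of the 6 times at ZT4 and 129 their lowest at ZT16. Of the 356 called lower, 307 had their lowest mean at ZT4 and 266 their highest at ZT16. These counts describe the genes the comparison selected and are not a separate test.

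In the collecting duct, vasopressin acting on its V2 receptor inserts and induces the water channel AQP2. Of 9 water transport genes, 2 were lower at ZT4 and none higher (22.2% against 3.01%). Aqp2 was at 525, 356, 416 and 338 CPM at ZT4 and at 1101, 1076 and 1183 CPM at ZT16. Every ZT16 library was above every ZT4 library, at 1120 ± 55.8 CPM (SD, n = 3) against 408.6 ± 84.2 CPM (n = 4), and the log2 change was -1.46 (SE 0.27, adjusted p = 0.0105). Avpr1a, the V1a vasopressin receptor, was at 11.6, 11.4, 12.6 and 10.9 CPM against 20.8, 18.04 and 22.1 CPM (log2 -0.81, SE 0.19, adjusted p = 0.0239). The Aqp2 call was lost without ZT4 replicate 4, ZT16 replicate 1 or ZT16 replicate 3 (adjusted p up to 0.0545), and the Avpr1a call was kept in 2 of 7 such fits. Aqp3, the exit channel of the same cells, was at 78.3 to 104 CPM against 114 to 133 CPM (log2 -0.53, adjusted p = 0.185). Avpr2, the V2 receptor, was at 24.6 to 29.5 CPM against 34.4 to 35.9 CPM (log2 -0.39, adjusted p = 0.161). The summed level of these collecting duct markers was 444 to 658 CPM at ZT4 and 1224 to 1350 CPM at ZT16. In bulk tissue, fewer cells of a type and less RNA per cell cannot be told apart. Aqp1, Aqp4, Aqp6, Aqp7 and Aqp11 did not pass, with log2 values from -0.41 to 0.77.

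Thick ascending limb genes had the opposite sign. Cldn16, the tight junction protein of magnesium reabsorption, was at 18.04, 18.8, 19 and 28.0 CPM at ZT4 and at 6.57, 15.8 and 11.6 CPM at ZT16 (log2 0.89, SE 0.22, adjusted p = 0.035, called in 1 of 7 fits that leave out a library). Umod, which encodes uromodulin, was at 4857 to 6442 CPM against 2406 to 3098 CPM without overlap but did not pass (log2 0.94, adjusted p = 0.183). Slc12a1, the loop diuretic target NKCC2, gave 0.56 (adjusted p = 0.53). Slc12a3, the thiazide-sensitive transporter of the distal convoluted tubule, gave -0.69 (adjusted p = 0.229). None of the 21 distal sodium and potassium transport genes passed (5 had an unadjusted p under 0.05, and DESeq2 also called 0), and their median was -0.16. That count was 8 with the ZT4 and ZT16 libraries fitted alone, 3 with the mean log2 CPM of the tubular injury genes as a covariate and 1 with the second sequencing set alone.

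Proximal tubule transport genes mostly had positive signs, 19 of 25, with a list median of 0.32, yet 1 passed (4% against 3.01%). That gene, Slc5a1, encodes the sodium-glucose transporter SGLT1 of the late proximal tubule. It was at 122, 113, 112 and 136 CPM at ZT4 and at 77.3, 69.0 and 59.2 CPM at ZT16 (log2 0.81, SE 0.18, adjusted p = 0.0238). Its early-tubule counterpart Slc5a2 (SGLT2) was at 156 to 235 CPM against 167 to 246 CPM (log2 0.07, adjusted p = 0.95). Of all 340 solute carriers tested, 6 were higher and 4 lower (2.94%, close to the 3.01% of all genes). Slc7a12, an amino acid transporter gene, was at 167, 124, 129 and 237 CPM against 26.2, 31.8 and 50.0 CPM (log2 2.18, SE 0.59, adjusted p = 0.0443), but leaving out any 1 library ended its call. Within other single times nephritic Slc7a12 varied as widely, from 6.19 to 224 CPM at ZT0 (n = 7) and from 31.9 to 315 CPM at ZT12 (n = 6). Slco4c1, an organic anion transporter of the kidney, was at 3.68, 2.10, 2.17 and 3.00 CPM against 0.269, 0.737 and 0.273 CPM (log2 2.66, adjusted p = 0.0238). The Slco4c1 call was kept in 3 of the 7 fits that leave out a library, with log2 values from 2.42 to 3.31. It was lost in the joint fit with the young mice. Nephritic Slco4c1 ran from 0.194 to 3.73 CPM within ZT0 (n = 7) and from 0.390 to 4.64 CPM within ZT12 (n = 6). Slc39a11, a zinc transporter, was at 32.6 to 43.2 CPM against 23.2 to 27.7 CPM (log2 0.58, adjusted p = 0.0238). Slc5a1 and Slc39a11 were each called in 3 of the 7 fits that leave out a library.

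Other genes higher at ZT4 came from several compartments. Gjb2 (connexin 26), a gap junction protein, was at 79.8, 81.2, 79.6 and 85.4 CPM at ZT4 and at 30.7, 24.6 and 32.9 CPM at ZT16 (log2 1.47, SE 0.31, adjusted p = 0.0209). The 4 ZT4 values differed little from one another, but the Gjb2 call was kept in 3 of the 7 fits that leave out a library. Gcm1, a transcription factor best known from placenta, was at 3.05, 1.75, 2.46 and 3.75 CPM against 0.299, 0.425 and 0.394 CPM (log2 2.87, SE 0.60, adjusted p = 0.0184). Within other single times nephritic Gcm1 varied as widely, from 0.25 to 4.98 CPM at ZT0 (n = 7) and from 0.502 to 4.89 CPM at ZT12 (n = 6). Kcnj5, a potassium channel subunit, was at 2.39 to 3.42 CPM against 0.637 to 1.02 CPM (log2 1.79). Ttr, the thyroxine and retinol carrier, was at 113, 206, 191 and 123 CPM against 61.3, 92.7 and 18.1 CPM (log2 1.46, adjusted p = 0.0394, called in 1 of 7 fits that leave out a library). Gclm, the modifier subunit of the enzyme that limits glutathione synthesis and the called gene among 16 NRF2 antioxidant genes (6.25% against 3.01%), was at 214 to 271 CPM against 140 to 165 CPM (log2 0.59, adjusted p = 0.0266). Agtr1a, the angiotensin II type 1a receptor, was the called gene among 12 blood pressure genes tested (8.33% against 3.01%), at 36.2 to 41.2 CPM against 23.5 to 28.6 CPM (log2 0.56, adjusted p = 0.045). Of the 7 fits that leave out a library, Gcm1 was called in 4, Kcnj5 in 3, Gclm in 1 and Agtr1a in 0.

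**Figure D3:**
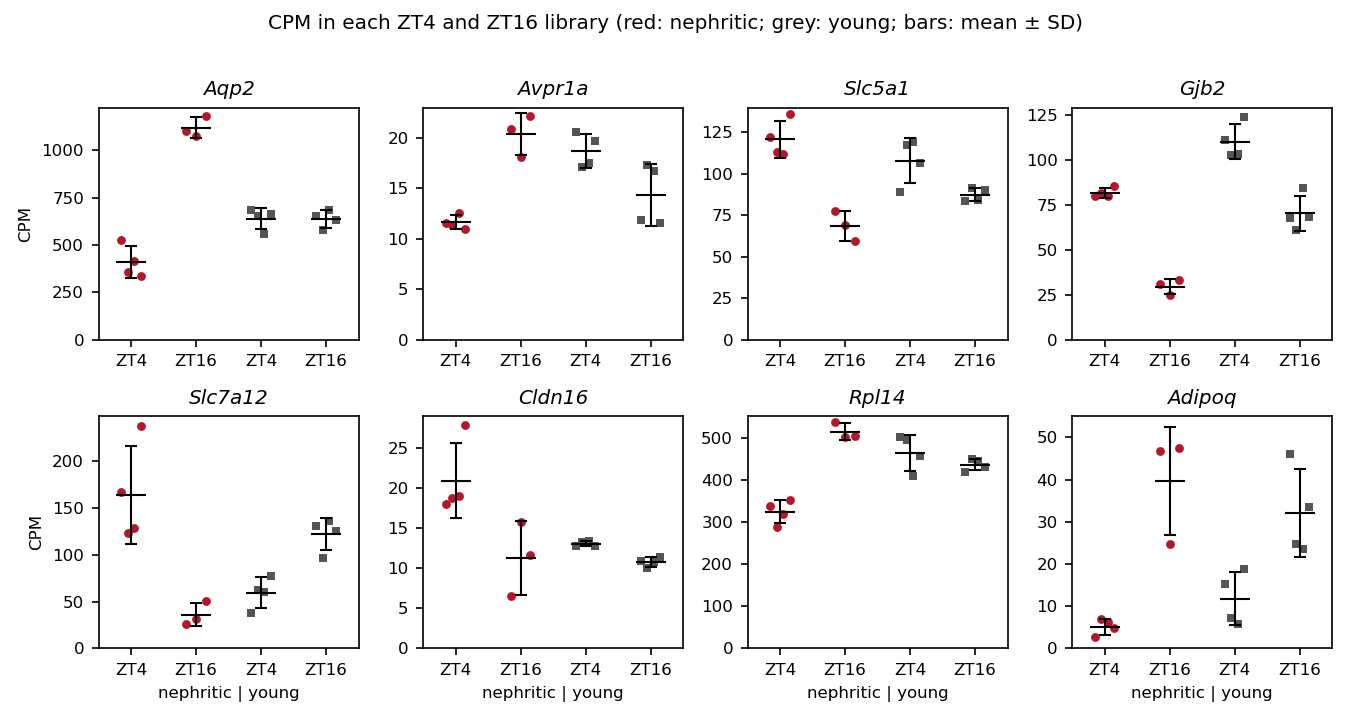
Level (CPM, vertical axis from 0) of 8 genes in each ZT4 and ZT16 library of nephritic (red, left) and young (grey, right) kidney, 1 point per library with bars at mean ± SD. In the nephritic libraries Aqp2, Avpr1a, Rpl14 and Adipoq are lower and Slc5a1, Gjb2, Slc7a12 and Cldn16 higher at ZT4, with no overlap in any of the 8.

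Genes of fat cells had lower levels in the ZT4 libraries. Of 8 adipocyte markers, 7 were called lower (87.5% against 2.11% lower of all genes), with a list median of -2.97. Their summed level was 98.4, 174, 166 and 146 CPM in the ZT4 libraries and 924, 518 and 999 CPM at ZT16. Adipoq, the adipocyte hormone adiponectin, was at 2.60, 6.85, 6.17 and 4.70 CPM against 46.7, 24.8 and 47.5 CPM (log2 -2.97, SE 0.63, adjusted p = 0.019). Cidec, a lipid droplet protein, was at 2.68, 7.44, 7.18 and 7.25 CPM against 69.8, 34.9 and 72.0 CPM (log2 -3.27, SE 0.58, adjusted p = 0.00971). ZT4 replicate 1 was the lowest library for both, and ZT16 replicate 2 the lowest at its time. Fat genes also varied widely between libraries of 1 time. Adipoq ran from 8.12 to 42.9 CPM at nephritic ZT0 (n = 7) and from 8.99 to 58.7 CPM at young ZT12 (n = 7). Cfd ran from 15.7 to 266 CPM at nephritic ZT0. Cfd (adipsin) fell by 3.53 on the log2 scale, Retn (resistin) by 3.41, Plin1 (perilipin) by 2.98, Car3 by 2.90 and Fabp4 by 1.71. Lep (leptin), the member not called, was at 0.308 to 1.22 CPM against 1.28 to 9.19 CPM (log2 -2.44, adjusted p = 0.102). Of other genes of fat tissue outside the list, Adig was called at -3.35, Adrb3 (the beta-3 adrenergic receptor) at -3.11 and Mrap at -2.88. Adig was called in 6 of the 7 fits that leave out a library, Adrb3 in 3 and Mrap in 0, and Mrap was also not called in the joint fit with the young mice.

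Adipocyte RNA also differed between times in the young kidneys, with 6 of the 8 markers lower at ZT4, against 9.53% of all genes there, and sums of 165 to 459 CPM against 531 to 1167 CPM. None of the 8 passed the test of the difference between groups. The number of the 8 called ranged from 0, without ZT16 replicate 1, to 7 when 1 nephritic library was left out, and was 5 with ZT4 replicates 2 and 3 summed. A fit added after seeing the data took the mean log2 CPM of the 8 adipocyte markers in each library as a covariate. In it edgeR called 0 genes, with 1703 at an unadjusted p under 0.05. Of the 508 genes, 498 kept their sign in that fit and 403 had an unadjusted p under 0.05. For the clock genes Cry1, Nr1d2 and Dbp the change was as large in it, at -2.38, 2.40 and 3.72, and for Arntl it went from -1.54 to -1.245. Adipoq, Plin1, Adrb3, Slc36a2, Car3 and Mrap turned to positive values. Adipoq, Plin1 and Car3 are among the 8 markers that made the covariate, so the loss of their change was built in. The marker sums did not overlap between the times, so this fit cannot tell fat RNA from time. Cry1, with a change as large as before, had an adjusted p of 0.237 in edgeR there. Other changes shrank in that fit, from -3.18 to -0.64 for Thrsp, from -4.50 to -2.21 for Saa3, from -2.77 to -0.94 for Ctla4 and from -1.54 to -0.65 for Hk2. The part of fat tissue in the other results was not tested beyond this fit.

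Thrsp, Saa3, Cyp2b10 and Hk2 were also called lower at ZT4. Thrsp, a regulator of fatty acid synthesis, was at 4.37, 5.88, 5.86 and 5.43 CPM against 26.3, 25.0 and 95.0 CPM (log2 -3.18, SE 0.80, adjusted p = 0.0335). It was 1 of 14 fatty acid synthesis genes (7.14% against 3.01%), its call was kept in 1 of the 7 fits that leave out a library, and its value was -2.27 without ZT16 replicate 3. Saa3, an acute-phase serum amyloid, was at 0.143, 0.308, 0.106 and 0.224 CPM against 1.46, 1.90 and 10.2 CPM (log2 -4.50, adjusted p = 0.0269), and these few reads make its fold uncertain. Without ZT16 replicate 3 its value was -3.09, and its call was likewise kept in 1 of 7. Cyp2b10, a drug-metabolising cytochrome and the called gene among 84 P450 genes (1.19% against 3.01%), was at 0 in ZT4 replicates 2, 3 and 4 and at 0.0856 CPM in replicate 1, against 1.37, 0.255 and 0.819 CPM at ZT16. Its call was kept in 1 of the 7 fits and lost in the joint fit. Hk2, a hexokinase, was at 3.45, 3.90, 3.66 and 3.16 CPM against 6.75, 8.42 and 15.7 CPM (log2 -1.54, adjusted p = 0.0373), and leaving out any 1 library ended its call.

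Glucocorticoid response genes all had negative signs, 16 of 16, with a list median of -0.90 beside -0.001 over all genes, and 1 passed (6.25% against 3.01%). Corticosterone in mice peaks around the onset of darkness, and these genes are its usual targets. Nfkbia, the NF-kappa-B inhibitor, was at 41.1, 32.7, 32.3 and 31.2 CPM against 86.5, 55.0 and 47.4 CPM (log2 -0.89, SE 0.20, adjusted p = 0.0239). Zbtb16, a steroid-induced zinc finger gene, was at 1.38 to 2.02 CPM against 5.005 to 6.86 CPM (log2 -1.88, adjusted p = 0.0552). Tsc22d3 (GILZ) was at 22.9 to 33.2 CPM against 47.6 to 96.1 CPM (log2 -1.35, adjusted p = 0.0549). Fkbp5, a chaperone of the receptor, gave -0.91 (adjusted p = 0.163). ZT16 replicate 1 was the highest library for Tsc22d3, Nfkbia, Dusp1 and Per1. DESeq2, the second sequencing set alone and the joint fit each called 4 of the 16, and fits that leave out a library 0 or 1. In young kidneys 9 of the 16 were called lower at ZT4, against 9.53% of all genes there, with a list median of -1.02. None of the 16 passed the test of the difference between groups. Of 17 immediate early genes 16 had a negative sign and 1, Fosb, was called (5.88% against 3.01%), at 1.51 to 2.37 CPM against 18.04, 3.40 and 3.79 CPM (log2 -2.12, adjusted p = 0.0347). Without ZT16 replicate 1, the highest of its libraries, the Fosb value was -0.89 (adjusted p = 0.431). Young kidneys had 9 of the 17 immediate early genes called lower at ZT4, against 9.53% of all genes there, and 0 of the 17 passed the test of the difference.

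Ribosomal protein genes had lower levels at ZT4. Of 78 tested, 26 were lower and 0 higher at ZT4 (33.3% against 2.11% lower of all genes), 73 had a negative sign, and the median was -0.38. Summed, they took 22580 to 24890 CPM at ZT4 and 31450 to 32940 CPM at ZT16, without overlap. Rpl14 was at 338, 289, 320 and 353 CPM against 540, 502 and 506 CPM (log2 -0.67, SE 0.12, adjusted p = 0.0111). Rps29 fell by 0.77 and Rps10 by 0.57. In young kidneys 8 of the 78 were higher and 0 lower at ZT4, against 8.76% of all genes called higher there, and 0 of the 78 passed the test of the difference between groups. The number called was 0 to 13 when 1 nephritic library was left out, 9 with ZT4 replicates 2 and 3 summed, and 1 in the joint fit with the young mice. These genes have many processed pseudogene copies, so how reads were assigned among copies is uncertain. Other large complexes gave no call in the main test: 0 of 103 respiratory chain genes (14 with an unadjusted p under 0.05, 1 called by DESeq2) and 0 of 39 proteasome genes (8 and 2 by the same measures) passed. With the ZT4 and ZT16 libraries fitted alone 16 and 7 did, and with a tubular injury covariate 10 and 3.

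Gene length and base composition moved with the direction of change. Genes called lower at ZT4 had a median longest transcript of 2258 bases and 54.9% GC, genes called higher 3936 bases and 45.9%, and all tested genes 3175 bases and 49.9%. Over all genes, called or not, the median log2 value went from -0.16 in the shortest of 5 equal length bins to 0.10 in the longest, and from 0.12 in the bin of lowest GC to -0.19 in that of highest GC. The ribosomal proteins, at a median of 1100 bases, lay in the shortest bin. The part of library composition in these changes was not tested.

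**Figure D4:**
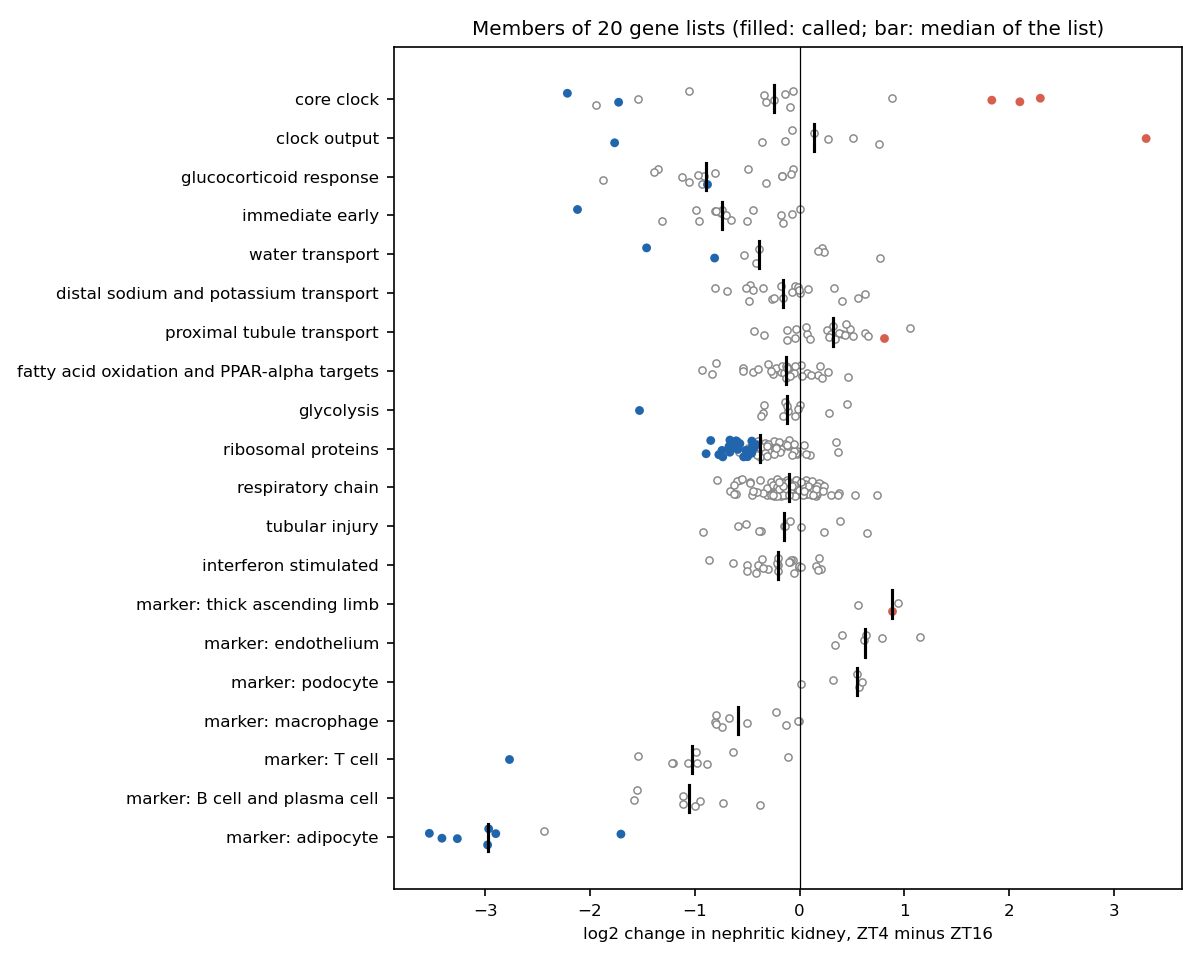
Change between ZT4 and ZT16 (log2, horizontal axis) of each tested member of 20 gene lists in nephritic kidney, with called genes filled and a bar at each list's median. Adipocyte markers lie between -3.53 and -1.71, ribosomal proteins mostly below 0, and the core clock genes on both sides from -2.22 to 2.30.

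Immune cell markers had lower values at ZT4 and markers of the filtration barrier and vessels higher ones, largely without passing the test. All 10 macrophage markers were negative and 0 called (0 with an unadjusted p under 0.05 and 0 by DESeq2), with sums of 609 to 801 CPM against 867 to 1307 CPM. All 10 T cell markers were negative (sums 23.0 to 51.5 against 57.7 to 94.2 CPM) and 1 was called (10% against 3.01% of all genes), Ctla4, an inhibitory receptor of activated and regulatory T cells. It was at 0.828, 1.05, 0.981 and 0.392 CPM against 8.87, 3.54 and 4.25 CPM (log2 -2.77, SE 0.57, adjusted p = 0.0157). The Ctla4 call was kept in 4 of the 7 fits that leave out a library. B and plasma cell markers summed to 83.1, 375, 340 and 159 CPM at ZT4 and to 499 to 553 CPM at ZT16, all 8 negative and 0 called (3 with an unadjusted p under 0.05, 0 by DESeq2). ZT4 replicates 1 and 4 held the least of them. The 6 endothelial markers were all positive without overlap (sums 301 to 363 against 185 to 259 CPM). Of all genes tested, 14.7% were higher at ZT4 without overlap. Kdr, the main VEGF receptor, led the 6, at 47.7 to 59.8 CPM against 15.5 to 33.3 CPM (log2 1.15, adjusted p = 0.126). Podocyte markers summed to 612 to 698 CPM against 413 to 489 CPM. Neither list had a call (3 endothelial and 0 podocyte genes at an unadjusted p under 0.05, 0 and 0 by DESeq2). The second sequencing set alone called 5 endothelial and 1 podocyte gene, and the ZT4 and ZT16 libraries alone called 5 and 3, with 4 macrophage genes. With the adipocyte covariate the list median went from -0.59 to -0.021 for macrophages, from -1.03 to -0.24 for T cells and from -1.05 to 0.33 for B and plasma cells, while the endothelial median was 0.60 beside 0.63 and the podocyte median 0.55 in both fits. Adrenal markers were near 0 in the 7 libraries, at 4.74 to 6.58 CPM in sum with Th at 0 in all, but reached 1675 CPM in the young ZT16 libraries.

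Several lists held no called gene between the times in the main test. None of the 31 fatty acid oxidation genes passed (0 at an unadjusted p under 0.05), none of 26 proliferation genes (0), none of 25 interferon-stimulated genes (2), none of 23 ER stress genes (3), none of 22 sterol synthesis genes (2), none of 18 DNA damage response genes (5) and none of 14 inflammatory mediators (2). DESeq2 called 0, 0, 0, 1, 0, 1 and 2 of them, the ZT4 and ZT16 libraries fitted alone 0, 0, 2, 3, 2, 4 and 2, and a tubular injury covariate 0, 0, 0, 1, 3, 2 and 4. The summed fatty acid oxidation list was 6172 to 8224 CPM at ZT4 and 5967 to 10210 CPM at ZT16. With 3 libraries at ZT16 that differed widely in injury markers, a change in these lists smaller than the spread was not detectable.

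The young kidneys answered the same question with 4 libraries a time, and 3022 of 16521 genes were called (18.3%), 1448 higher (8.76%) and 1574 lower (9.53%) at ZT4. Of the 508 nephritic calls, 120 were called in the young mice, 93 of them in the same direction (18.3% of the nephritic and 3.08% of the young calls) and 27 in the opposite one. Nr1d1, Nr1d2, Dbp, Cry1 and Nfil3 had the same sign in both groups. Their young log2 values were 4.10, 0.91, 1.99, -3.56 and -2.50, and none of these 5 passed the test of the difference between groups (adjusted p 0.0567 for Nr1d2 to 0.233 for Nfil3).

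Tested directly, the change from ZT16 to ZT4 differed between nephritic and young kidney for 189 of 17521 genes (1.08%), with 68 values more positive (0.388%) and 121 more negative (0.691%) in nephritic kidney. Adrenal RNA in some young ZT16 libraries touches this comparison as well, and its part was not tested. Per3 differed most clearly among the clock genes. In young kidneys it was at 21.6, 25.9, 28.1 and 24.9 CPM at ZT4 and at 36.2, 34.2, 32.8 and 37.5 CPM at ZT16, lower at ZT4 where the nephritic libraries were higher (difference in log2 2.33, adjusted p = 0.00428). That call held in all 15 fits that each left out 1 library (adjusted p 0.00578 to 0.0289). Per2 (1.88, adjusted p = 0.0321) and Npas2 (-2.26, adjusted p = 0.0344) also differed, but each was kept in 4 of the 15. Young Per2 was at 12.8 to 15.1 CPM at ZT4 and 62.1 to 65.7 CPM at ZT16 and did not overlap, while the nephritic values did. Young Npas2 was at 11.1 to 13.2 CPM against 8.05 to 10.5 CPM, where the nephritic values were far lower at ZT4 than at ZT16.

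Aqp2 did not differ by time in young kidneys, at 687, 653, 556 and 664 CPM against 654, 579, 687 and 630 CPM (log2 -0.03, adjusted p = 0.932). Nephritic ZT4 libraries lay below this range and nephritic ZT16 libraries above it. Within other single times nephritic Aqp2 varied widely, from 482.5 to 1503 CPM at ZT0 (n = 7) and from 530 to 1910 CPM at ZT12 (n = 6). The test of the difference gave -1.46 (adjusted p = 0.0494), and it was kept in 1 of the 15 fits that leave out a library. Avpr1a was higher at ZT4 in young kidneys by sign (20.6, 17.1, 17.5 and 19.6 CPM against 11.8, 17.3, 16.7 and 11.6 CPM) and lower in nephritic ones (difference -1.19, adjusted p = 0.018, kept in 9 of 15). A930033H14Rik, an uncharacterised transcript, was at 5.05 to 5.78 CPM against 11.9 to 13.1 CPM in young and at 7.14 to 8.93 CPM against 4.88 to 5.97 CPM in nephritic kidney (difference 1.75, adjusted p = 0.00496, kept in all 15). Ethe1 and Fabp7 differed by time in young kidney and had overlapping values in nephritic kidney. Ethe1, the mitochondrial enzyme of sulfide oxidation, averaged 228 ± 23.1 CPM at ZT4 and 102 ± 9.29 CPM at ZT16 in young mice (SD, n = 4 each), beside 94.9 to 140 and 127 to 142 CPM in nephritic ones (difference -1.37, adjusted p = 0.0154, kept in 12 of 15). Fabp7, a fatty acid binding protein, averaged 17.2 ± 2.58 and 4.50 ± 0.781 CPM in young mice, beside 8.76 to 13.2 and 8.62 to 9.38 CPM (difference -1.59, adjusted p = 0.018, kept in 11 of 15). Gcm1 (4.03, adjusted p = 0.044), Olfm4 (2.13), Nup62cl (2.77) and Ttr (3.27) were higher at ZT4 in nephritic kidney and had negative values in young kidney.

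**Figure D5:**
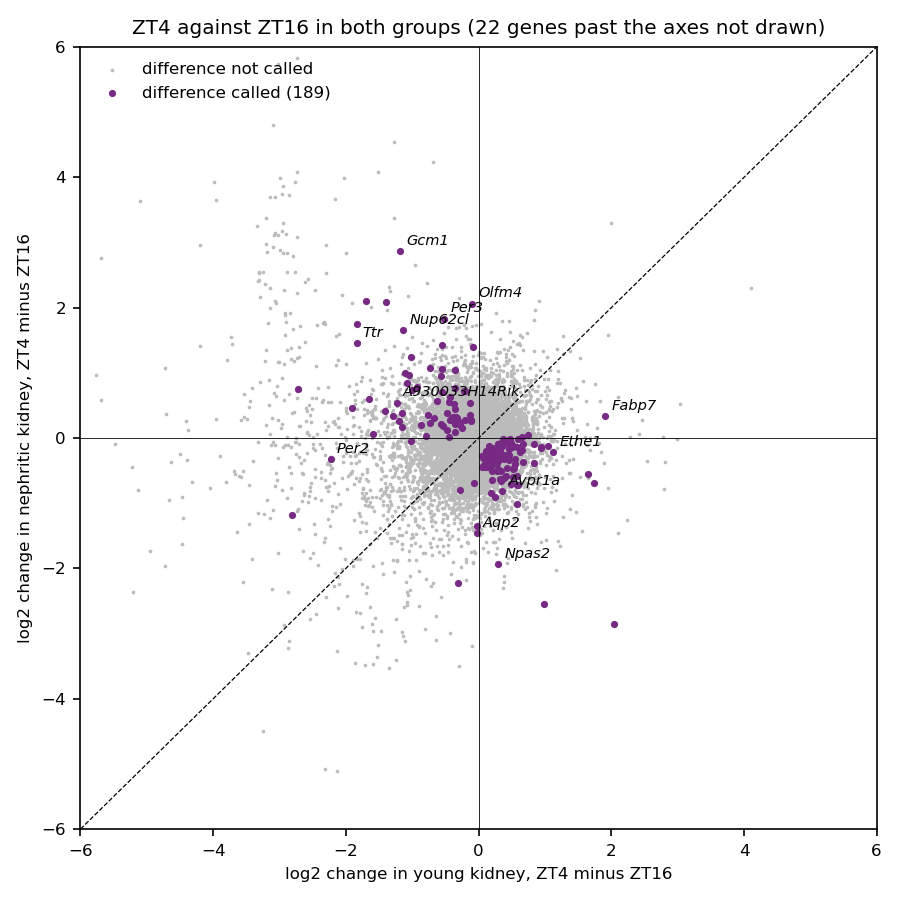
Change between ZT4 and ZT16 (log2) in young kidney (horizontal axis) beside nephritic kidney (vertical axis) for 16386 genes tested in both, with the 189 genes whose change differed between the groups coloured. Per3 lies below 0 in young and above 0 in nephritic kidney, while 22 genes past 6 on either axis are not drawn.

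Motifs were counted last over all called genes. Of genes with a promoter in the table, CACGTG was found in 15.8% of 120 called higher, 11.2% of 276 called lower and 10.7% of 13155 tested. The RORE core was found in 5%, 3.62% and 2.46%, and the D-box in 1.67% (Per3 and Olfm4), 1.45% and 0.973%. These shares describe sequence alone and no binding was measured.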

How the data were processed

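Female NZB/W F1 kidneys were perfused and oligo-dT selected RNA was sequenced as 150-base reads. The authors deposited raw read counts per gene symbol, aligned to mm10 with at most 2 mismatches. The study's methods name the Burrows-Wheeler aligner and the submitters' processing notes HISAT, and whether counting used strand is not given in the sources used here. Of 69 libraries, 57 entered the fits (30 young, 27 nephritic, 6 times), and 24523 of 24538 symbols had counts. The total per library, 25617028 to 35583849 counts over the 15 libraries compared, limits the precision of genes at a few CPM. Groups came from the labels, which do not state the animal behind each library, so p-values measure the spread between these libraries, which may in part be technical.

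The main test was edgeR 4.0.16 (R 4.3.3), TMM and the quasi-likelihood F test, for genes with at least 100 counts over the fit, with each time as a level plus sequencing set, all times of one diagnosis sharing the spread. Calls were made at a Benjamini-Hochberg adjusted p of at most 0.05. Young mice were fitted alone and the difference between groups in 1 joint fit. CPM values use TMM factors over the 57 libraries. Alternatives were RLE scaling, no filter, DESeq2 1.42.0, limma 3.58.1, other sets of libraries, leaving out each library, and covariates. Scripts were tested on simulated data. Named genes were all clock genes, the 12 largest and 12 smallest called changes with a mean of at least 1 CPM, the 5 smallest p-values of the difference, and up to 4 called members per list. Genes and lists were chosen with earlier results of these data known. Promoters and gene positions come from RefSeq and GENCODE on GRCm38. Results for some genes are not reported here.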

Additional observations from a re-analysis of the deposited data

Results flagged for a closer look

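In 10 of the 65 genes named, 1 of the 4 ZT4 libraries stood far from the other 3, with a gap to its nearest neighbour past Dixon's critical share of the whole range. Chance alone does this in about 1 group in 20. ZT4 replicate 1 was the outlying library for Per2 (0.86 of the range, highest), Nfkbia (0.848, highest) and Cyp2b10 (1, the only library above 0), and the lowest for the fat genes Cfd (0.89), Cidec (0.945) and Slc36a2 (0.904). ZT4 replicate 4 was the highest for Nup62cl (0.898) and Cldn16 (0.903) and the lowest for Bhlhe41 (0.862) and Rps29 (0.839).

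The change between the times differed between nephritic and young kidney, by the test of that difference in the joint edgeR fit, for 13 of the genes named. Adjusted p was 0.00428 for Per3, 0.0321 for Per2 and 0.0344 for Npas2 among clock genes, 0.0494 for Aqp2 and 0.018 for Avpr1a among water transport genes, and 0.0154 for Ethe1, 0.018 for Fabp7 and 0.00496 for A930033H14Rik. It was 0.018 for Gtf2a1, a subunit of the general transcription factor TFIIA, at 45.8 to 46.9 CPM at ZT4 and 36.9 to 38.9 CPM at ZT16 in nephritic kidney (log2 0.28) and -0.21 in young kidney. It was 0.044 for Gcm1, 0.0443 for Olfm4, 0.0309 for Nup62cl and 0.0321 for Ttr. Young Ttr was uneven at ZT16, at 800, 84.5, 825 and 165 CPM, and its difference was called in 6 of 15 fits that each left out 1 library. Per3 and A930033H14Rik were called in 15 of 15, Gtf2a1 in 13, Nup62cl in 5, Olfm4 in 3 and Gcm1 in 2.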

How the results depend on the processing

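The count of nephritic genes called, 508, was 501 with RLE scaling, 372 without a filter on low counts, 509 with limma and 347 in the joint fit. It moved by more than 1.5 times with DESeq2 (1085), with the ZT4 and ZT16 libraries alone (2403, 39.9% of them higher against 29.9%), with the second sequencing set alone (954), with a tubular injury covariate (1723, 41.3% higher), with ZT4 replicates 2 and 3 summed (114), with an adipocyte covariate (0) and at an adjusted p of at most 0.01 (19). Leaving out 1 library gave 18 to 345. The adipocyte covariate and the summing of libraries were chosen after seeing the data. The young count, 3022, was 1174 in the joint fit, 1095 at 0.01 and 1694 to 3359 without 1 library. The difference count, 189, was 78 without a filter, 776 with DESeq2, 3144 with the ZT4 and ZT16 libraries alone, 1789 in the second set, 55 with the pair summed, 2 at 0.01 and 2 to 275 without 1 library.

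Signs turned for few of the genes named. Under the adipocyte covariate the log2 value became 0.035 for Clock, 0.171 for Bhlhe41, 0.124 for Nampt, 0.373 for Adrb3, 0.511 for Plin1, 0.344 for Adipoq, 0.447 for Slc36a2, 0.253 for Car3 and 0.341 for Mrap, and with a tubular injury covariate 0.008 for Alas1. Over the fits that leave out 1 library it ran from -0.559 to 0.040 for Per2 and from -0.135 to 0.051 for Alas1 (highest without ZT16 replicate 3), and from -0.209 to 0.028 for Bhlhe40 and from -0.277 to 0.009 for Nampt (highest without ZT16 replicate 1). The cause was not tested. Of the 45 named genes called, 0 kept their call under every alternative, the adipocyte covariate ending all 45. The levels of the adipocyte markers did not overlap between the times, so that fit cannot tell fat RNA from time. No paired analysis was possible because the labels give no replicate numbers shared between the times. The number of libraries at ZT16, 3 that differed widely in injury markers, limits what could be called, and so do low counts for genes at a few CPM.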

Other observations

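Within fatty acid synthesis, genes differed in direction without passing the test. Scd1, the stearoyl-CoA desaturase, was at 1434 to 1730 CPM at ZT4 and at 455, 805 and 959 CPM at ZT16 (log2 1.07, adjusted p = 0.243). Fasn, fatty acid synthase, was at 105 to 117 CPM against 155, 183 and 546 CPM (log2 -1.42, adjusted p = 0.104), and Acaca, which makes its malonyl-CoA substrate, at 22.7 to 25.2 CPM against 27.4, 30.1 and 70.9 CPM (log2 -0.87). ZT16 replicate 3 was the highest library for Fasn, Acaca, Thrsp and Pnpla3, which was at 2.08 to 3.64 CPM against 7.17, 4.48 and 20.9 CPM.

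Gluconeogenic genes spread widely at ZT16. G6pc, the last enzyme of glucose release, was at 313 to 386 CPM at ZT4 and at 1025, 442 and 775 CPM at ZT16 (log2 -1.04, adjusted p = 0.404). Pck1 was at 1444 to 1950 CPM against 4344, 929 and 2145 CPM (log2 -0.54). The lowest ZT16 value of both was replicate 2, the library with the highest Lcn2 and Havcr1.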
